A study of Sus scrofa with 36 samples.

Results

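Lactoferrin (LTF), the receptor LRP8 and 3 genes of iron and haem handling (TFRC, HAMP and HMOX2) were followed in the hippocampus of piglets that had drunk milk replacer with or without extra lactoferrin. A gene was taken where a probe set of the array named its symbol alone, and probe sets of low signal were kept. Each of the 5 genes had exactly 1 such probe set, so the 5 probe sets stand for 5 of the 6765 genes named on the array and 5 of its 23999 probe sets. RNA was measured on 36 Affymetrix porcine arrays, 1 per hippocampus, in 3 feeding groups of 12 samples. All were male Landrace by Large White piglets that entered the study at 3 days of age, were placed in the groups at random and were sampled at 38 days. The control group drank a milk replacer with its basal level of lactoferrin, an amount the labels do not quantify. The medium and high groups drank replacer with lactoferrin at 0.6 g/L and 1.2 g/L. The labels add a set code to each sample (5 codes, S1 to S5) without saying what it stands for, and no medium sample had the code S1. They also carry a P code that differs for every sample of a set code. Whether piglets shared a pen or a litter is not stated, so they were treated as independent.

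Lactoferrin is an iron-binding glycoprotein of milk, neutrophils and mucosal secretions, related to the plasma iron carrier transferrin. Cells take up transferrin-bound iron through the transferrin receptor, store it in ferritin, and release it through ferroportin, which the hormone hepcidin removes from the cell surface. Haem oxygenases open the haem ring and free its iron, and LRP8 is a lipoprotein receptor of neurons through which reelin signals in the hippocampus.

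The unit throughout is the deposited log2 value, which is rounded to 1 decimal, so a step of 0.1 is the smallest difference that 1 array can show. Array medians lay between 6.6 and 6.7 and no arrays were identical. Averaged over the other arrays, the correlation of an array had a median of 0.991 and was lowest, at 0.980, in high replicate 2. The number of arrays limits the precision, and the p-values measure the spread between samples. Differences were fitted with limma on all 23999 probe sets with the set code as a block, and an adjusted p under 0.05 was the threshold. In whole tissue, fewer cells of a type and less RNA per cell cannot be told apart.

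None of the 5 genes passed the threshold in any comparison of feeding groups. The 3 comparisons called 0.0% of the 23999 probe sets each, and so did the test of any difference between the groups. The smallest adjusted p among the 5 genes was 0.896 for medium minus control, 0.877 for high minus control and 0.838 for high minus medium. At an unadjusted p under 0.05, 0 of the 5 genes differed between medium and control, where 1543 probe sets (6.43%) did. HAMP and HMOX2 lay higher in the high group than in controls, 2 of the 5 genes, where 890 probe sets (3.71%) lay higher at that level and 461 (1.92%) lower, 5.63% in all. The 5 genes were chosen with earlier results of these data known, these 2 differences among them. Their share therefore cannot be read as an excess over all probe sets. LRP8 lay lower in the high than in the medium group, 1 of the 5 genes, where 713 probe sets (2.97%) lay lower and 677 (2.82%) higher, 5.79% in all. With each array centred on its median, 994 lay higher and 399 lower for high minus control, and 946 higher and 540 lower for high minus medium, so this split moved with the scaling. For medium minus control 880 (3.67%) lay higher and 663 (2.76%) lower as deposited, and 734 higher and 792 lower with centred arrays, so the larger side turned.

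**Figure D1:**
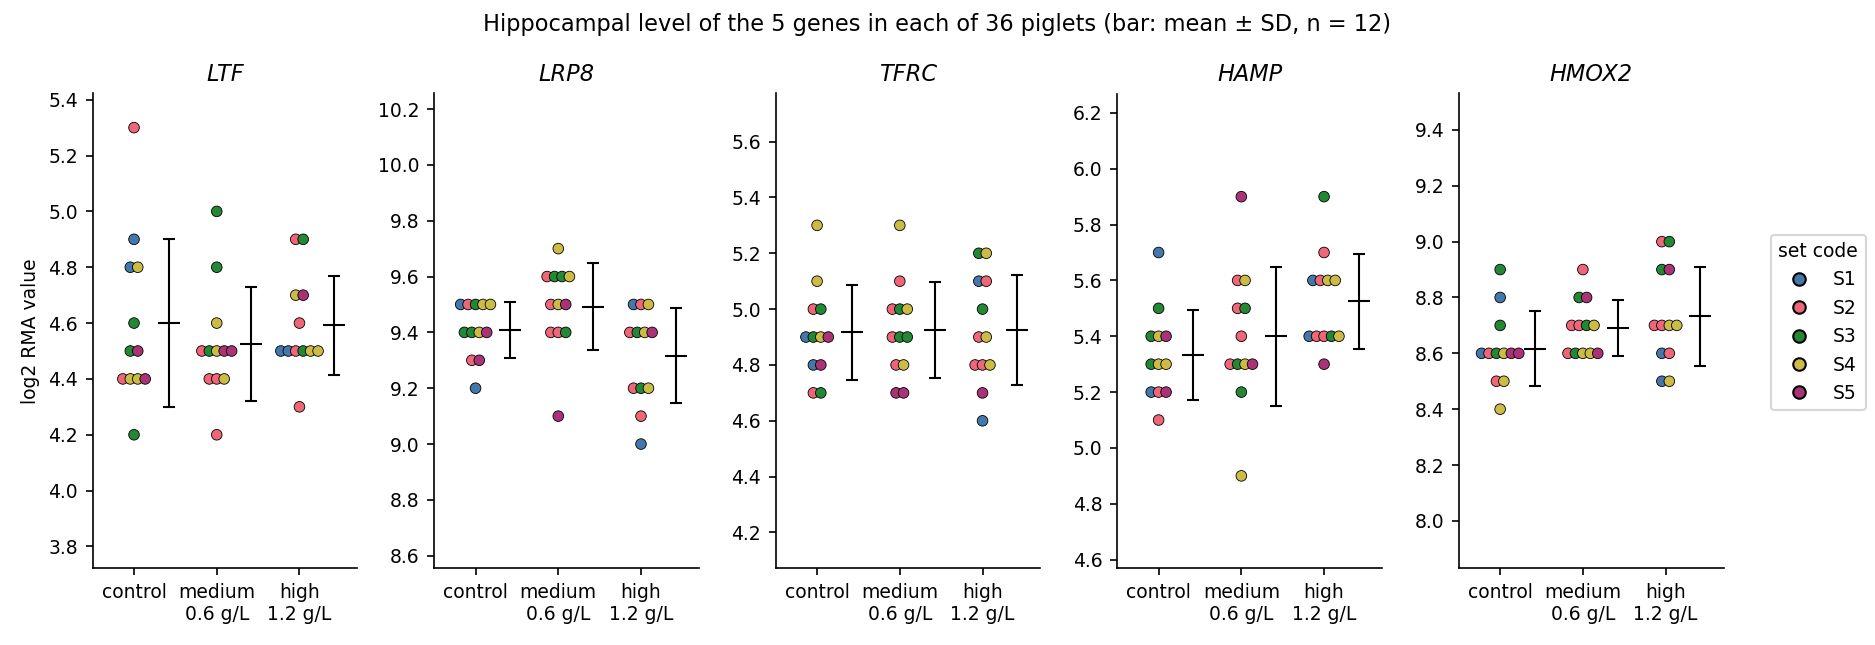
Deposited log2 RMA value (vertical axis, a window of the same height in each panel) of LTF, LRP8, TFRC, HAMP and HMOX2 in each of 36 piglets by feeding group, with points coloured by set code and the bar beside them giving mean ± SD (n = 12). The 3 groups overlap in every panel, and the mean of HAMP goes from 5.33 in controls to 5.53 in the high group.

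LTF, the piglets' own lactoferrin gene, was measured near the dim end of the array. In controls its lowest value was 4.2, its median 4.5 and its highest 5.3. In the medium group the same 3 values were 4.2, 4.5 and 5.0, and in the high group 4.3, 4.5 and 4.9. The medians were equal and the groups overlapped almost wholly. Its mean over the 36 arrays, 4.57, lay below the 25th percentile of all probe sets (4.92). The log2 difference from control was -0.06 in the medium group (SE 0.10, 95% interval -0.26 to 0.14) and -0.00 in the high group (SE 0.10, 95% interval -0.20 to 0.19). High minus medium was 0.05 (SE 0.10). By set code LTF went in both directions. In S2 the controls held 4.4 and 5.3 and the 4 medium samples a mean of 4.38, while in S3 the 3 controls had a mean of 4.43 and the 3 medium samples one of 4.77. The test that the diet difference was the same in all set codes, over 7 interaction coefficients, gave LTF p = 0.0892 and an adjusted p of 0.748, so it did not pass. That test called 0.0167% of probe sets. The highest LTF value of all, 5.3, belonged to control replicate 4.

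LTF was also read against the labelling. A polyadenylated spike-in control, Dap, was absent on 10 arrays, 3 control, 3 medium and 4 high. LTF averaged 4.70 ± 0.22 (SD, n = 10) on these and 4.52 ± 0.22 (SD, n = 26) on the others. The part of the labelling in the level of LTF was not tested.

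LRP8 was the gene whose levels differed most by unadjusted p. Its lowest, median and highest values were 9.2, 9.4 and 9.5 in controls. They were 9.1, 9.5 and 9.7 in the medium group and 9.0, 9.4 and 9.5 in the high group. Of the 12 medium samples 5 lay above the highest control, and of the 12 high samples 9 lay below the medium median and 0 above it. The ranges still overlapped. Group means were 9.41 ± 0.10 (SD, n = 12) in controls, 9.49 ± 0.16 (SD, n = 12) in the medium and 9.32 ± 0.17 (SD, n = 12) in the high group, so the order of the means was medium, control, high. The neighbours in that order, medium and control, differed by 0.07 (SE 0.06, p = 0.23), and high minus control was -0.09 (SE 0.06, p = 0.127). The outer pair differed by -0.17 for high minus medium (SE 0.06, 95% interval -0.29 to -0.05, p = 0.00897, adjusted p = 0.838), a ratio of 0.889. The test of any difference between the 3 groups gave LRP8 p = 0.0306 and an adjusted p of 0.808, the 1 of the 5 genes under 0.05 there, where 6.0% of probe sets were.

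Within set codes, high minus medium in LRP8 was -0.18 for S2 (4 and 4 piglets), -0.23 for S3 (2 and 3), -0.23 for S4 (3 and 3) and 0.10 for S5 (1 and 2). It lay below 0 in 3 of these 4 set codes. By the spike-in control Dap the difference of means was -0.09 on the arrays that had it (8 high, 9 medium) and -0.36 on those that lacked it (4 and 3), and with a second block for Dap the fitted difference was -0.16 (p = 0.0117). Without high replicate 2, the array of lowest correlation, it was -0.15 (p = 0.0123). Without the samples of S3 it was -0.15 (p = 0.0512), and without those of S4 it was -0.15 (p = 0.0677). Markers of oligodendrocytes, the myelin-forming cells, moved the other way in the same comparison. Of 12 measured markers, 11 lay above 0 for high minus medium, 1 of them at an unadjusted p under 0.05. Their median was 0.13 against 0.01 over all probe sets. The mean of the list ranged from 9.31 to 9.74 in the medium group and from 9.27 to 10.64 in the high group. For high minus control, where LRP8 was at -0.09, 6 of these markers lay above 0 and 6 below, with a median of -0.01. Of 8 neuron markers, 7 lay below 0 for high minus medium, with a median of -0.04. Their part in the LRP8 difference was not tested.

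TFRC, the receptor that brings transferrin-bound iron into cells, was the flattest of the 5 genes. Its lowest, median and highest values were 4.7, 4.9 and 5.3 in controls and again in the medium group, and 4.6, 4.9 and 5.2 in the high group. The group means were 4.92 ± 0.17, 4.93 ± 0.17 and 4.93 ± 0.20 (SD, n = 12 each). The fitted differences were -0.00 for medium minus control, -0.00 for high minus control and 0.00 for high minus medium, with an SE of 0.07 each. The 95% interval of high minus control ran from -0.14 to 0.14, which bounds the difference but does not show that the groups were alike. The mean of TFRC, 4.92, lay at the 25.1 percentile of all probe sets.

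The means of TFRC spread more widely over set codes than over diets, which was not tested as a difference. The mean was 4.76 ± 0.09 (SD, n = 5) in S5, with values from 4.7 to 4.9, and 5.03 ± 0.20 (SD, n = 9) in S4, with values from 4.8 to 5.3. S1, S2 and S3 lay between, at 4.85, 4.91 and 4.95. The test of the set code gave p = 0.0601 and an adjusted p of 0.351, so it did not pass, where 405 probe sets (1.69%) did. At unadjusted p under 0.05 the set code separated 15.3% of probe sets and 0 of the 5 genes.

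HAMP, the gene of hepcidin, had a higher mean in the high group than in controls but did not pass. It was dim, with a mean over the 36 arrays of 5.42. That lay at the 31.7 percentile of all probe sets, below the 50th percentile (6.61). In controls its lowest value was 5.1, its median 5.3 and its highest 5.7. In the medium group these were 4.9, 5.35 and 5.9, and in the high group 5.3, 5.5 and 5.9. Of the 12 high samples 11 lay above the control median and 1 at it, yet 1 alone lay above the highest control. The means followed the dose, at 5.33 ± 0.16, 5.40 ± 0.25 and 5.53 ± 0.17 (SD, n = 12 each). High minus control was 0.20 (SE 0.08, 95% interval 0.03 to 0.37), a ratio of 1.15, with p = 0.0226 and an adjusted p of 0.877. The neighbouring steps were 0.08 for medium minus control (SE 0.08, p = 0.365) and 0.12 for high minus medium (SE 0.08, p = 0.16), with 95% intervals of -0.09 to 0.25 and -0.05 to 0.29 that hold 0. Each step moved with 1 sample. Medium minus control was 0.02 without medium replicate 11 and 0.13 without medium replicate 9, and high minus medium was 0.17 and 0.07. Within set codes high minus control was 0.05 for S1 and 0.0 for S5, and for S2, S3 and S4 it was 0.38, 0.25 and 0.20, each over 1 to 4 piglets a group.

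HAMP varied widely inside the medium group. Medium replicate 9, in S4, held the lowest value of the study, 4.9, and medium replicate 11, in S5, shared the highest, 5.9, with high replicate 7. The 36 differences that each left out 1 sample ranged from 0.16, without high replicate 7, to 0.24, without control replicate 1. Without the samples of S2 high minus control was 0.16 (p = 0.134), and without those of S3 it was 0.19 (p = 0.0503). The test of the set code gave HAMP p = 0.918.

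HMOX2, the constitutive haem oxygenase of the brain, had its means in the same order. Its lowest, median and highest values were 8.4, 8.6 and 8.9 in controls, 8.6, 8.7 and 8.9 in the medium group, and 8.5, 8.7 and 9.0 in the high group. Of the 12 high samples 8 lay above the control median, 2 at it and 2 below, and 2 lay above the highest control. The means were 8.62 ± 0.13, 8.69 ± 0.10 and 8.73 ± 0.18 (SD, n = 12 each). High minus control was 0.13 (SE 0.06, 95% interval 0.01 to 0.24, p = 0.0284, adjusted p = 0.879), a ratio of 1.09. Medium minus control (0.06, SE 0.06, p = 0.258) and high minus medium (0.06, SE 0.06, p = 0.277) had 95% intervals of -0.05 to 0.18 each, which hold 0. Without high replicate 5 high minus medium was 0.04. In S1 the high samples lay below the controls, by -0.15, while S2, S3, S4 and S5 gave 0.20, 0.22, 0.13 and 0.30. Without S1 the difference was 0.18 (p = 0.00288), and without S2, S3, S4 or S5 it was 0.11, 0.11, 0.12 and 0.11, with p from 0.0851 to 0.0931.

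By set code HMOX2 was lowest in S4, at 8.59 ± 0.11 (SD, n = 9), and highest in S3, at 8.78 ± 0.15 (SD, n = 8). The values of S4 ran from 8.4 to 8.7 and those of S3 from 8.6 to 9.0. The test of the set code gave p = 0.0651 and an adjusted p of 0.363.

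**Figure D2:**
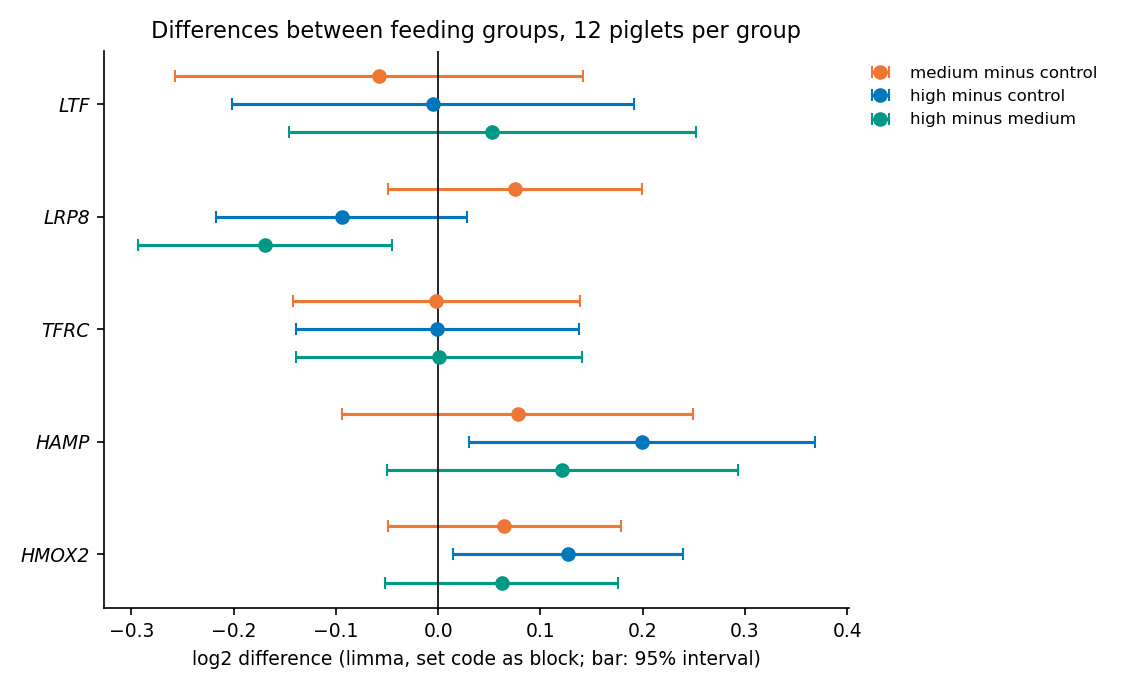
Fitted log2 difference (horizontal axis) of each of the 5 genes for the 3 comparisons of feeding groups, with bars for the 95% interval (12 piglets per group, set code as a block). The interval lies clear of 0 for LRP8 in high minus medium (-0.29 to -0.05), for HAMP in high minus control (0.03 to 0.37) and for HMOX2 in high minus control (0.01 to 0.24), and none of these passed after adjustment.

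**Figure D3:**
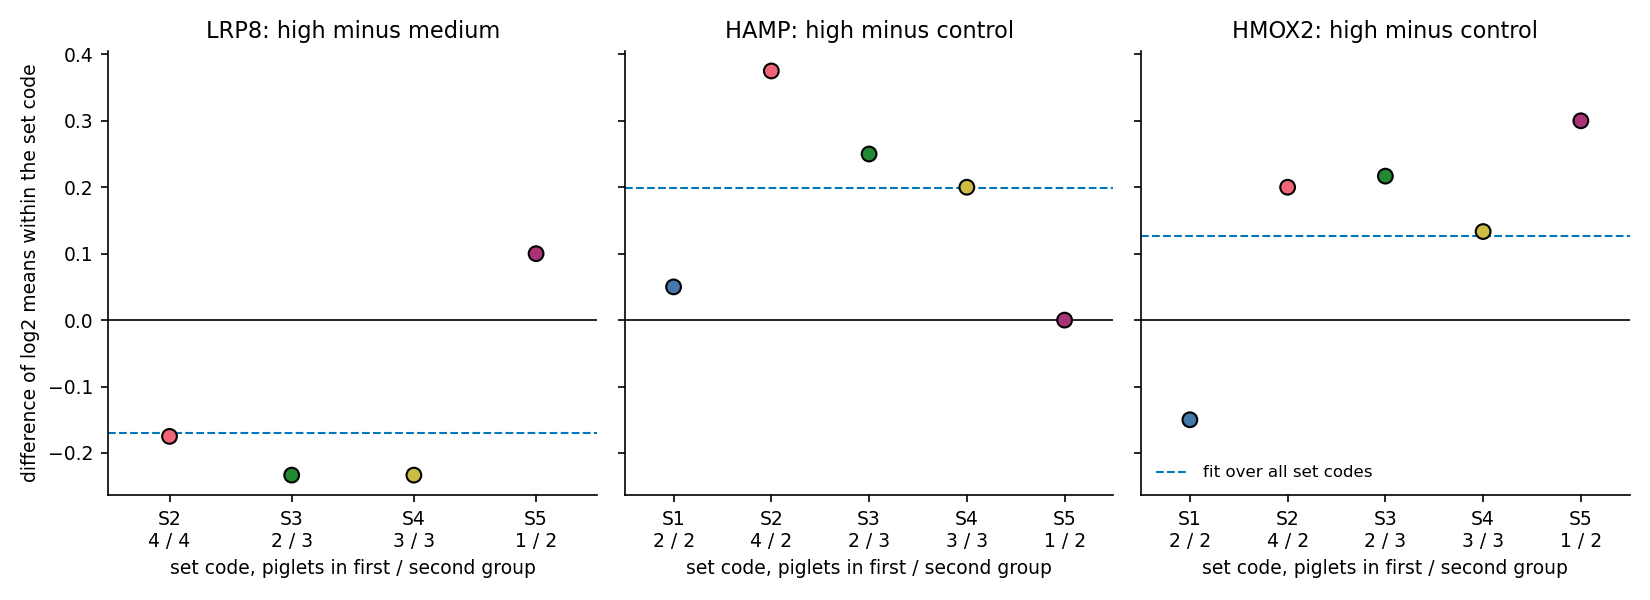
Difference of group means within each set code (vertical axis, log2) for LRP8, HAMP and HMOX2, with the number of piglets in each group under the code and the dashed line at the fitted difference. LRP8 lies below 0 in 3 of 4 set codes, HAMP above 0 in 4 of 5 with S5 at 0.0, and HMOX2 above 0 in 4 of 5 with S1 at -0.15.

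Across the 36 hippocampi, LRP8 and HAMP ran against each other. Where LRP8 was high HAMP was low, with Pearson r = -0.601 (permutation p = 0.00013, adjusted p = 0.0013 over 10 pairs) and Spearman rho = -0.535 (permutation p = 0.00095, adjusted p = 0.0095). All permutation tests were two-sided. Without the 2 samples farthest from the median of LRP8, high replicates 2 and 6, r was -0.571. It was -0.602 after feeding group and set code means were removed. Within feeding groups r was -0.528 in controls (permutation p = 0.089), -0.655 in the medium group (permutation p = 0.032) and -0.579 in the high group (permutation p = 0.057), each over 12 samples. Within set codes it was -0.265 in S2 (permutation p = 0.48), -0.726 in S3 (exact permutation p = 0.051) and -0.623 in S4 (exact permutation p = 0.097). It was -0.542 over the 26 arrays on which Dap was present (permutation p = 0.0041) and -0.684 in the 10 without it (permutation p = 0.034). The sign was thus the same in each of these subsets, and the relation was below an unadjusted 0.05 in 3 of the 8. The subsets cut the same 36 samples by feeding group, set code and Dap, so they overlap and are not independent repeats. The relation was not particular to this pair. HBB, a marker gene of red blood cells, had r = 0.618 with LRP8 and -0.691 with HAMP. ALAS2 and AHSP, the other measured red blood cell markers, had r between -0.07 and 0.08 with both. With group and set code means removed, the 99th percentile of signed r over other genes was 0.58 for LRP8 and 0.61 for HAMP. It describes positive relations alone, and the matching value for negative ones was not computed.

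**Figure D4:**
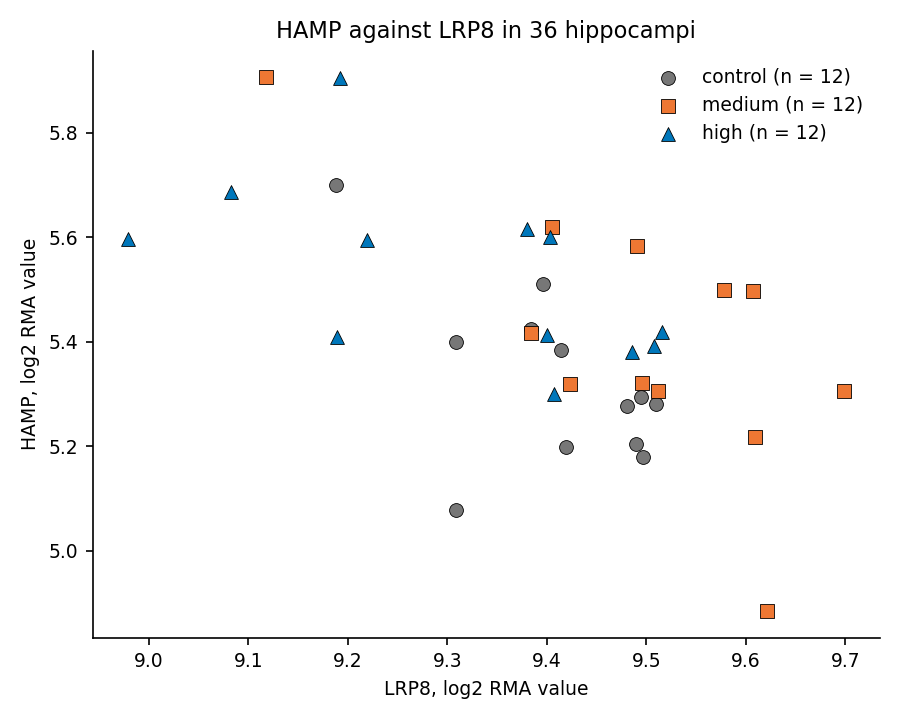
HAMP against LRP8, both as log2 RMA values, in 36 hippocampi, with the marker giving the feeding group (n = 12 each) and a small random offset added so that equal rounded values can be seen apart. Points run from high LRP8 and low HAMP to low LRP8 and high HAMP (r = -0.601) in all 3 groups.

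No other pair of the 5 genes passed. HAMP and HMOX2 came nearest, with r = 0.410 (permutation p = 0.013, adjusted p = 0.067), rho = 0.394 (permutation p = 0.017, adjusted p = 0.087) and r = 0.299 without the 2 samples farthest from the median of HAMP. Within set codes that relation was 0.318 in S2, 0.799 in S3 and 0.255 in S4. LTF passed with none of the other 4 genes, with r from -0.168 to 0.0861. TFRC and LRP8 had r = 0.254 (permutation p = 0.13). All of these values share array, normalisation and animal.

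The 5 genes were then set against the mean level of 8 marker lists of cell types that the dissection could hold, 40 relations in all, and 2 passed by Pearson r. HAMP followed the neutrophil list, with r = 0.536 (permutation p = 0.00063, adjusted p = 0.025), rho = 0.575 (permutation p = 0.00021, adjusted p = 0.0084) and r = 0.636 without 2 samples. It was 0.937 in S2 (permutation p = 0.0001) but -0.243 in S3 (exact permutation p = 0.57) and 0.513 in S4 (exact permutation p = 0.17). By feeding group it was 0.839 in controls (permutation p = 0.00058), 0.522 in the medium group (permutation p = 0.085) and 0.140 in the high group (permutation p = 0.67). It was 0.674 on the 26 arrays with Dap (permutation p = 0.00025) and 0.119 on the 10 without it (permutation p = 0.75). The relation therefore did not hold in S3, in the high group or on the arrays without Dap. With group and set code means removed it was 0.452 and no longer passed (permutation p = 0.0057, adjusted p = 0.057). Of 12 listed neutrophil genes 5 were measured, S100A8, S100A9, S100A12, ELANE and MMP9, and the first 3 lay below the 25th percentile. Of these 5, MMP9, a matrix metalloproteinase, had the highest single correlation with HAMP, at 0.48. The list mean ranged from 4.48 to 4.68 in controls, from 4.54 to 4.72 in the medium group and from 4.58 to 4.86 in the high group, and 5 of the 5 genes lay above 0 for high minus control. Its part in the HAMP difference was not tested.

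LRP8 ran against the oligodendrocyte list, with r = -0.516 (permutation p = 0.0017, adjusted p = 0.035). By rank it did not pass, with rho = -0.451 (permutation p = 0.0063, adjusted p = 0.13), and without high replicates 2 and 6 r was -0.394. Leaving out high replicate 2 alone gave -0.353 (permutation p = 0.037, adjusted p = 0.283), so the call rested on that sample. The call also ended without control replicate 1 (-0.490), medium replicate 5 (-0.502) or medium replicate 9 (-0.496). Within set codes r was -0.424 in S2 (permutation p = 0.23), -0.856 in S3 (exact permutation p = 0.006) and 0.052 in S4 (exact permutation p = 0.9). It was -0.353 on the arrays with Dap (permutation p = 0.076) and -0.687 on those without it (permutation p = 0.022). HMOX2 ran against the microglia list without passing (r = -0.464, permutation p = 0.0042, adjusted p = 0.057). Of its 8 measured markers 7 lay below 0 for high minus control, with a median of -0.20, and the list mean ranged from 7.44 to 8.40 in controls and from 7.41 to 7.75 in the high group. The part of microglia in the HMOX2 difference was not tested.

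The genes whose pattern was most like each of the 5 were found by Pearson r over the 36 samples after feeding group and set code means were removed, among the 6032 or 6033 other genes at or above the 25th percentile. These values are a description, and the points share array and animal. For LRP8 they were the chromatin remodelling ATPase SMARCA2 (r = 0.79), the isocitrate dehydrogenase IDH1 (0.75) and the poly(A)-binding protein PABPC4 (0.73), where the 99th percentile of all genes was 0.58. For HAMP they were the calcium-binding protein gene CAPS (0.79), the transcription factor SNAI1 (0.77) and R3HDM4 (0.76), with a 99th percentile of 0.61. TFRC was nearest to LPIN1, a phosphatidate phosphatase (0.78), ahead of LY86 (0.56) and GTDC1 (0.54), with a 99th percentile of 0.41. HMOX2 was nearest to the lysosomal hexosaminidase subunit HEXA (0.70), GDE1 (0.68) and the DNA damage binding protein DDB1 (0.67), against 0.46. LTF was nearest to DPH3 (0.65), the lowest first-ranked value of the 5 genes. Next came the mitochondrial carnitine carrier SLC25A20 (0.56) and the DNA damage kinase ATM (0.54), against 0.39.

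The other genes of the same pathways did not pass either. Of 61 measured genes besides the 5, 0 passed in any comparison. For medium minus control 2 lay higher and 3 lower at unadjusted p under 0.05 (8.2% against 6.43% of all probe sets). For high minus control these were 0 and 2 (3.28% against 5.63%), and for high minus medium 1 and 2 (4.92% against 5.79%). The median difference of the 61 genes was -0.01, -0.00 and 0.00 in these 3 comparisons, where that of all probe sets was 0.00, 0.01 and 0.01.

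Genes of iron uptake other than TFRC included transferrin, TF, the iron carrier that oligodendrocytes make in the brain, which was measured at 12.56 ± 0.47 in controls, 12.29 ± 0.30 in the medium and 12.57 ± 0.45 in the high group (SD, n = 12 each). Its differences were -0.20 for medium minus control (SE 0.16, p = 0.216) and 0.19 for high minus medium (SE 0.16, p = 0.242). The first was -0.09 without control replicate 4, and the second 0.11 without high replicate 12. Of the 6 measured genes of this list, 0 had an unadjusted p under 0.05 in any comparison. The zinc and iron transporter SLC39A14 was at -0.10 for medium minus control (SE 0.07) and -0.08 for high minus control (SE 0.07). It was, with the haem synthesis gene ALAD, 1 of 2 pathway genes whose level passed between set codes. The metalloreductase STEAP4 had a mean of 3.19, and the haem and folate carrier SLC46A1 differed by 0.06 and 0.05 from control at the 2 doses.

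Of the genes that control hepcidin and iron export, 8 of 23 were measured, and ferroportin was not among them. STAT3, which carries the interleukin 6 signal to the hepcidin gene, was at -0.12 for medium minus control (SE 0.05, p = 0.039, 10 of 12 medium samples below the control median) and at 0.11 for high minus medium (SE 0.05, p = 0.0478). These comparisons share the medium samples, and STAT3 was at -0.01 for high minus control (SE 0.05). SMAD4 and SMAD1, which carry bone morphogenetic protein signals, were at -0.09 (SE 0.06, p = 0.145) and -0.04 (SE 0.06, p = 0.482) for high minus control. IL6 itself was dim, with a mean of 3.49, and differed by 0.12 between medium and control (SE 0.07, p = 0.112).

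Among 12 measured genes of iron storage and sensing, neither ferritin chain passed in any comparison. The light chain FTL was at 12.86 ± 0.17, 12.77 ± 0.12 and 12.88 ± 0.20 in control, medium and high (SD, n = 12 each), and the heavy chain FTH1 differed by 0.00 between high and control (SE 0.04). IREB2, an iron-sensing RNA-binding protein that protects TFRC transcripts when iron is short, was at 0.08 for high minus control (SE 0.06, p = 0.171) and 0.11 for high minus medium (SE 0.06, p = 0.0876). The hypoxia factor HIF1A was at -0.13 for high minus control (SE 0.06, p = 0.0373, adjusted p = 0.879), but 2 of its 3 other probe sets had the opposite sign.

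In the haem list, 13 of 19 genes were measured. ALAS2, the first enzyme of haem synthesis in red cells, was at 0.22 for medium minus control (SE 0.10, p = 0.0428), with 10 of 12 medium samples above the median of controls. ALAS2 is itself 1 of the 3 red blood cell markers. The others were AHSP, at 0.08 there (SE 0.15), and HBB, at -0.02 (SE 0.10). Their part was not tested. UROD, a later enzyme of haem synthesis, was at -0.12 for high minus medium (SE 0.06, p = 0.0439), and haptoglobin, HP, which binds free haemoglobin, at -0.21 (SE 0.10, p = 0.0466), or -0.13 without medium replicate 9. The inducible haem oxygenase HMOX1 was at 0.01 for high minus control (SE 0.05), beside 0.13 for HMOX2.

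Of the receptors and binding proteins of lactoferrin, 8 of 13 were measured, and 0 besides LRP8 had an unadjusted p under 0.05. The endocytic receptor LRP2 was at 0.07 for high minus control (SE 0.08, p = 0.362, and 0.03 without control replicate 9), the receptor chaperone LRPAP1 at -0.05 (SE 0.07), and CD14 and TLR4, which sense bacterial lipopolysaccharide, at -0.02 and 0.04 (SE 0.06 each). GAPDH, which binds lactoferrin at the cell surface, was at 0.08 for medium minus control (SE 0.05, p = 0.144).

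Of the reelin list around LRP8, 20 of 33 genes were measured and reelin was not among them. MYLIP, the ubiquitin ligase that marks LRP8 and related receptors for breakdown, had the smallest p of the list between high and control, at -0.19 (SE 0.07, p = 0.0111, adjusted p = 0.853), with 10 of 12 high samples below the control median. Its level was 8.40 ± 0.21 in controls and 8.21 ± 0.15 in the high group (SD, n = 12 each). Between medium and control, SELENOP, the selenium carrier that LRP8 takes up, was at -0.30 (SE 0.12, p = 0.0176, adjusted p = 0.726), with 12 of 12 medium samples below the control median. For high minus control it was at -0.21 (SE 0.12, p = 0.0773), and both comparisons share the controls. Without control replicate 4 these differences were -0.18 and -0.10. The endocytic adaptor DAB2 was at 0.26 for medium minus control (SE 0.11, p = 0.0239) and the lipoprotein APOE, a ligand of LRP8, at -0.17 (SE 0.08, p = 0.0321). VLDLR, the other reelin receptor, was at -0.02 for high minus control (SE 0.10, p = 0.801).

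**Figure D5:**
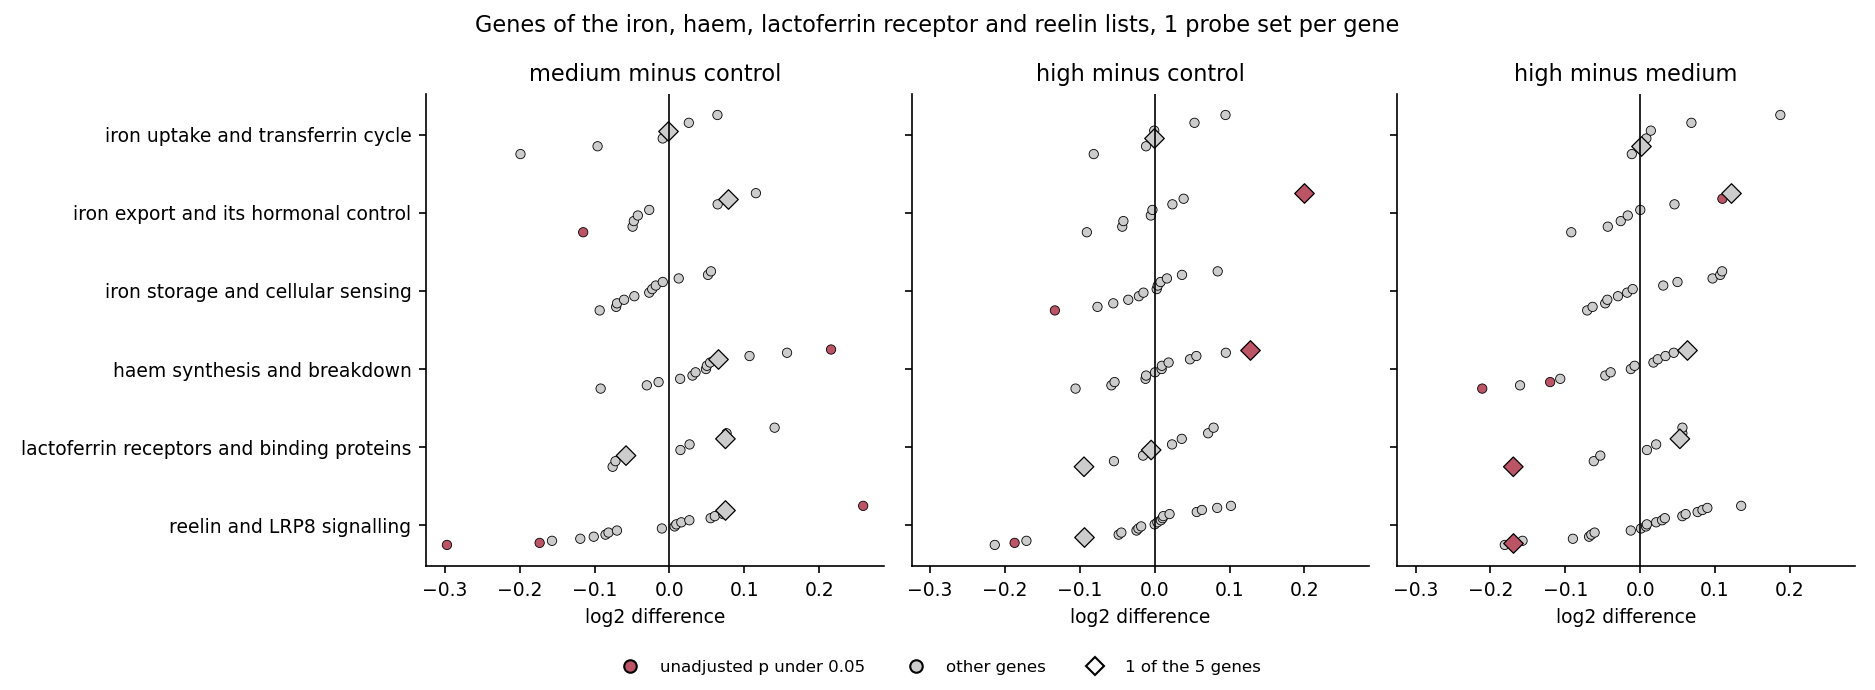
Fitted log2 difference (horizontal axis) of each measured gene of 6 pathway lists for the 3 comparisons of feeding groups, with diamonds for the 5 genes (LRP8 is in 2 lists) and red fill for an unadjusted p under 0.05. Most genes lie near 0 and none passed after adjustment, with SELENOP at -0.30 and DAB2 at 0.26 farthest out in medium minus control.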

How the data were processed

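The authors deposited log2 values per probe set. The submitters' processing notes name RMA and Affymetrix Expression Console 1.1. The method subtracts a modelled background, brings arrays to one distribution and summarises probes, which can narrow differences of dim probe sets. Deposited values are rounded to 1 decimal. All value columns belonged to the 36 samples. The 124 array controls were left out, and no filter was set, so that LTF stayed in. The array annotation of 2016 gave 1 symbol to 10069 probe sets, several to 198 and none to 13732, and 9961 matched RefSeq (Sscrofa11.1) by gene ID.

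In R 4.3.3, limma 3.58.1 fitted group and set code to 23999 probe sets (eBayes, two-sided, Benjamini-Hochberg over all, threshold 0.05). Relations used 100000 resamples in Python 3.11.15 with scipy 1.17.1, exact in S3 and S4. A gene with several probe sets was read from the one with the highest mean. Named genes were the 5, up to 3 of the smallest p per pathway list and comparison, with further list genes chosen after their values were seen (FTH1, HMOX1, VLDLR, TLR4), and the 3 most alike per gene. The 5 genes and the lists were chosen with earlier results of these data known, HAMP and HMOX2 at the high dose among them, so these values are no independent support.

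Alternatives were other blocks (none, random, replicate number), filters, centring, quantile normalisation, array weights, robust eBayes, a spike-in block, the mean of all probe sets, 2 groups alone, and leaving out each set code or sample. Relations within feeding groups were added after the data had been seen. On simulated data with 200 of 23999 probe sets changed, recovery for high minus control was 69.7% at 1.25-fold, 93% at 1.5-fold and 99.5% at 2-fold. These folds were mixed in each run with independent noise, and the larger ones can ease the adjusted threshold for 1.25-fold. Changes as small as the ratios of HAMP (1.15) and HMOX2 (1.09) for high minus control and LRP8 (0.889) for high minus medium were not simulated. Their recovery is therefore not known. Whether replicate numbers pair the samples could not be told, and the main fit did not pair them.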

Additional observations from a re-analysis of the deposited data

Results flagged for a closer look

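HAMP held 3 samples that stood far from the others of their set code. In S3, high replicate 7 was at 5.9, where the other samples lay between 5.2 and 5.5. In S4, medium replicate 9 was at 4.9, where the others lay between 5.3 and 5.6. In S5, medium replicate 11 was at 5.9, where the others lay between 5.2 and 5.4. The 5 genes gave 35 groups of 4 to 10 samples (set codes, and feeding groups within a set code), and chance gives such a sample in about 1 in 20 groups.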

How the results depend on the processing

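No setting brought any of the 5 genes past the threshold between feeding groups. HAMP for high minus control lay between 0.16 and 0.24, with an unadjusted p under 0.05 in 49 of 53 other fits. HMOX2 lay between 0.11 and 0.18, under that level in 43 of 54, and LRP8 for high minus medium between -0.21 and -0.15, in 52 of 54. In each case 36 of the fits left out 1 sample and so nearly repeat the main fit. HMOX2 was over 0.05 without a set block (p = 0.054), with both set and replicate blocks, and without S2, S3, S4 or S5. Some of the fits that left out 1 sample also put HMOX2 over 0.05. LRP8 for high minus medium was over 0.05 without S3 and without S4. Whether same-numbered samples of different groups were paired could not be told. With group and set code means removed, 3 of 36 such pairs correlated over 0.1 and 0 samples were closest to their own number. Removing set code means itself lowers the correlation of samples that share a set code, so this check cannot exclude pairing. The median r was -0.101 in same-numbered pairs and 0.0149 in other pairs. With a replicate block alone HAMP for high minus control was at 0.19 (p = 0.0296) and with both blocks at 0.24 (p = 0.0242). HMOX2 was at 0.12 (p = 0.0426) and 0.12 (p = 0.089), and LRP8 for high minus medium at -0.18 (p = 0.0129) and -0.21 (p = 0.0174). Either fit called 0 probe sets.

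TFRC and LTF lay so near 0 that their sign changed. TFRC for medium minus control and for high minus control was at 0.0083 and 0.0083 without a set block and with the replicate block alone, and at 0.0076 and 0.0076 with a random set block. For medium minus control it was 0.021 without S4 and 0.030 without S5. For high minus control it was 0.00084 with centred arrays, 0.0082 with 2 groups alone, 0.045 without S4 and 0.023 without S5. For high minus medium it was -1.04e-05 with a random set block, -0.0083 with both blocks, -0.028 with quantile normalisation, -0.035 without S3 and -0.0067 without S5. LTF was at 0.028 and 0.058 from control with array weights and at 0.076 and 0.046 without S2, medium first, at 0.067 for high minus control without S1, and for high minus medium at -0.054 with both blocks and -0.030 without S2. SLC39A14 for high minus medium was -0.050 without a set block and with the replicate block alone, -0.044 with a random one, -0.0061 with array weights, -0.089 without S4 and -0.00048 without S5. SMAD1 for high minus control was 0.0013 with both blocks and 0.015 without S3. Over the mean of all probe sets, medium minus control was 0.048 for HIF1A and 0.044 for CD14. TFRC and HAMP had r = 0.0095 after group and set means were removed.

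Leaving out 1 sample at a time gave TFRC from -0.031 to 0.026, from -0.031 to 0.029 and from -0.030 to 0.030 in medium minus control, high minus control and high minus medium. LTF went from -0.106 to 0.036 and from -0.046 to 0.087 in the first 2 of these, and SLC39A14 from -0.012 to 0.062 in the last. For r, LTF with HAMP went from -0.075 to 0.212, LTF with HMOX2 from -0.0068 to 0.170, and TFRC with HAMP from -0.163 to 0.147.

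Counts over all probe sets moved more. Medium minus control called 7 with these 2 groups alone and 3 without S1, and high minus medium called 1 with array weights. The set code called 694 with array weights, 39 without S1, 162 without S3 and 34 without S4. Leaving out 1 sample gave from 0 to 1 calls in medium minus control, in high minus medium and in the test of any difference, and from 127 (without control replicate 1) to 745 (without control replicate 12) for the set code. It left from 1 to 2 relations among the 5 genes and from 1 to 4 with marker lists. The cause of these changes was not tested. LTF, below the 25th percentile, has no value under either filter, nor TFRC and HAMP under the 50th percentile filter. The number of arrays limits what could be seen, and the effect of the rounding was not tested.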
